A study of Mus musculus with 18 samples.

Results

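The CXC chemokines measured here are 8 genes, Cxcl1, Cxcl2, Cxcl3, Cxcl9, Cxcl10, Cxcl16, Pf4 (Cxcl4) and Ppbp (Cxcl7), taken by symbol from the 20298 genes of the expression table. All 8 were found, and each was followed in all 18 libraries. RNA was sequenced from mouse monocytes enriched from bone marrow and from the monocyte-derived cells (MDCs) they became in culture, on the C57BL/6J background. Wild-type (WT) cells were compared with cells of the Stat5a-Stat5b double knockin (DKI), in which both STAT5 proteins carry an N-domain mutation, so that STAT5 dimers still form but tetramers do not. There were 6 groups of 3 libraries, namely unstimulated WT and DKI monocytes (day 0, no GM-CSF) and WT and DKI MDCs collected on day 3 or day 6 of culture in GM-CSF (20 ng/mL), the growth factor that signals through STAT5. The mutation is in the germ line, so every cell of a DKI mouse carries it, and the monocytes were enriched by negative selection rather than sorted. Age and sex were not given in the sources used here.

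CXC chemokines are small secreted proteins that steer leukocytes through G protein-coupled receptors. Those with the residues Glu-Leu-Arg (ELR) before the CXC motif, among them CXCL1, CXCL2, CXCL3 and processed PPBP, recruit neutrophils through CXCR2, whereas CXCL9 and CXCL10 are induced by interferon and attract activated T and NK cells through CXCR3. PF4 and PPBP are stored in platelet granules, and Pf4 is also transcribed in some macrophages. CXCL16 is made as a membrane protein that binds CXCR6 and oxidized lipids and is released by ADAM10 and ADAM17.

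Values are RPKM, reads on a gene scaled to its length in kilobases and to the depth of the library (in M, mega, reads), and can therefore be compared between genes. Depth was between 29.5 and 43.2 M reads per library. Differences were fitted on log2(RPKM + 1) with limma, in genes with a mean RPKM above 2 in a compared group, and were called where the p adjusted by Benjamini-Hochberg was under 0.05 and the fold exceeded 1.5. The library names give replicate 1 of the MDC groups an earlier year than the rest. Results that rest on it are given with and without it, for most genes other than the CXC chemokines as counts. The labels name liver as the tissue. All 7 hepatocyte and Kupffer cell markers in the table were below 1 RPKM in every library, 4 of them at 0 throughout. Stat5a and Stat5b, whose coding change does not remove the mRNA, were at 14.5 ± 2.21 and 31.0 ± 6.93 RPKM (SD, n = 3) in WT monocytes and at 13.7 ± 2.08 and 29.3 ± 6.24 in DKI monocytes. In MDCs Stat5a was lower in DKI without overlap, at 42.6 ± 14.1 in WT against 12.4 ± 2.67 on day 3 and 41.6 ± 18.4 against 11.7 ± 2.62 on day 6 (SD, n = 3), with log2 differences of -1.67 (SE 0.28, adjusted p = 0.0224, limma) and -1.68 (SE 0.32, adjusted p = 0.0357, and 0.0516 with a replicate block). Stat5b was also lower without overlap, at 21.7 ± 4.18 against 14.6 ± 1.97 and 22.6 ± 5.59 against 13.5 ± 0.822, and was not called (adjusted p = 0.143 and 0.0767).

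The positions of the genes are given for GRCm38 (mm10). Pf4 lies at chr5:90772435-90773383, next to Ppbp (chr5:90768518-90770063) and Cxcl3 (chr5:90786101-90788093), with Cxcl1 (chr5:90891245-90893121) and Cxcl2 (chr5:90903899-90905938) in the same stretch of chromosome 5. Cxcl9 (chr5:92321331-92328079) and Cxcl10 (chr5:92346638-92348889) form a second group on that chromosome. Cxcl16 stands alone at chr11:70454389-70459984. The expression values are sums over the exons of each gene, and no isoform is resolved.

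Promoters of 7 of the 8 genes, from 250 bases before to 50 after the start site, were taken from RefSeq (GRCm38.p6) and searched on both strands for a kappaB motif (GGGNNNNTCC), an interferon-stimulated response element (ISRE, TTTCNNTTTC) and a GAS motif for STAT dimers (TTCNNNGAA). The kappaB motif was found in Cxcl1, Cxcl2, Cxcl3 and Cxcl10, against 19.2% of 32851 promoters. The ISRE motif was found in Cxcl10 alone among the 7, against 3.44%, and the GAS motif in none of the 7, against 8.30%. Pf4, Ppbp and Cxcl9 held none of the 3 motifs in this window. The stretches before the start sites of the 3 ELR genes are shown first because they share the same 10 bases, GGGAATTTCC, which 29 of the 32851 promoters (0.0883%) hold. They are chr5:90891135-90891244, chr5:90903789-90903898 and chr5:90785991-90786100 on the plus strand, written 5′ to 3′ and ending at the base before the start site, with kappaB matches in capitals (neighbouring or overlapping matches on the strands run together).
Cxcl1: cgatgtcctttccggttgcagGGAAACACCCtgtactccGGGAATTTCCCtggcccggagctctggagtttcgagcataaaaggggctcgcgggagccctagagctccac
Cxcl2: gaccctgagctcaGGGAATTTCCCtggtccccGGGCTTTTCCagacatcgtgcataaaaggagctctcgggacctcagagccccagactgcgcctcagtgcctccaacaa
Cxcl3: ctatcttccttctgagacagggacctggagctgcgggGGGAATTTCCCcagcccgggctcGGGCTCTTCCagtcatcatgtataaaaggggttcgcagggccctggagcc
Each of the 3 held a pair of separate kappaB stretches, which began at -89 and -71 in Cxcl1, -97 and -78 in Cxcl2 and -73 and -50 in Cxcl3, counted from the start site. The stretch of Cxcl10 (chr5:92348890-92349119, minus strand) is shown because it combines an ISRE match at -213, found on the opposite strand, with kappaB matches at -159 and -104, all in capitals. That of Pf4 (chr5:90772185-90772434, plus strand), the one gene called between the genotypes, has no match and is in lower case throughout.
Cxcl10: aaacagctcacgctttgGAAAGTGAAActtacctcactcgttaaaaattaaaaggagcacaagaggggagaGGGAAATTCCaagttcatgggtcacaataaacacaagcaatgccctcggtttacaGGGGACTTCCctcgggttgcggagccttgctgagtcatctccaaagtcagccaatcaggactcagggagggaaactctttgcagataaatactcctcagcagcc
Pf4: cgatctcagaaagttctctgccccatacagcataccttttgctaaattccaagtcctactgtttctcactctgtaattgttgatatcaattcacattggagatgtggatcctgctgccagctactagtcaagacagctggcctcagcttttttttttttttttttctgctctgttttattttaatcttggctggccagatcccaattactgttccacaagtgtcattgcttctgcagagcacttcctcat

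**Figure D1:**
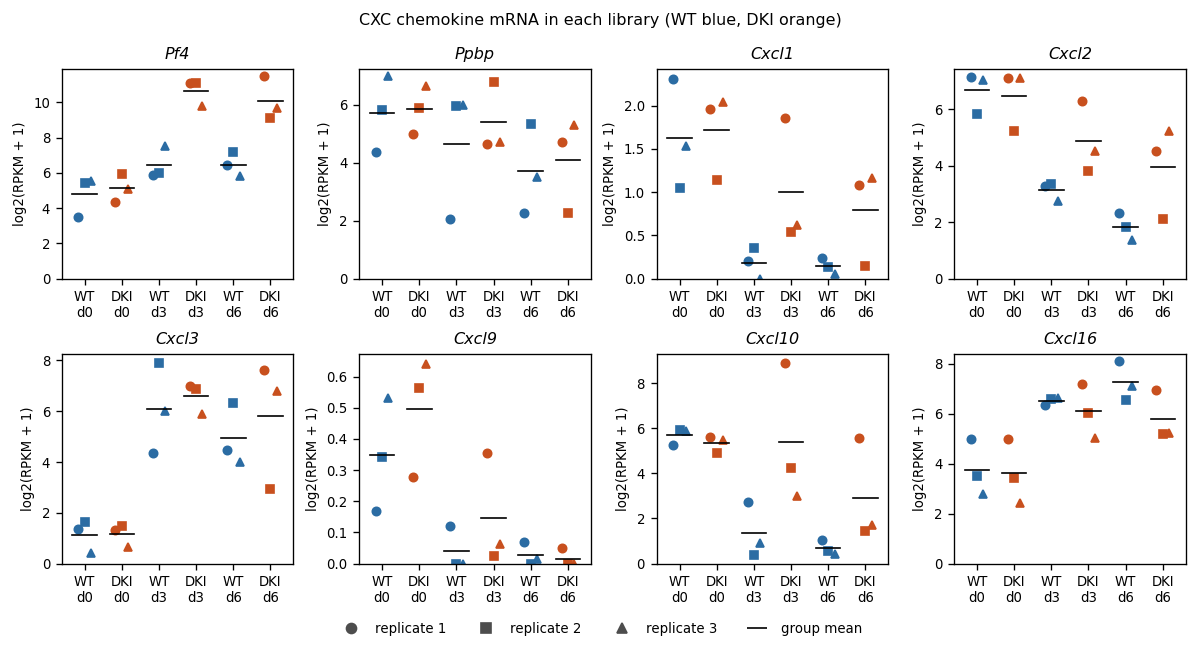
Each panel plots log2(RPKM + 1) of 1 CXC chemokine gene in the 18 libraries, by genotype and day (d0, d3, d6), with replicates as circles, squares and triangles and the group mean as a line. Pf4 in the 6 DKI MDC libraries lies above every other library, the values of Cxcl10 spread widely between the DKI day 3 libraries, and the 2 genotypes overlap in every panel on day 0.

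In unstimulated monocytes no call between the genotypes was made for a CXC chemokine. Of the 8 genes 6 were fitted on day 0, none was called and none had groups without overlap, where over all 9179 genes fitted 0% was called (0 genes by limma and 0 by voom on whole reads, with 44 at an unadjusted p under 0.05) and 1.03% had groups that did not overlap. The largest fitted difference on log2(RPKM + 1) was that of Cxcl10, -0.35 (95% interval -0.99 to 0.28), and the interval for Pf4 was -1.30 to 1.89. By level, Cxcl2 led in both genotypes (108.4 ± 46.2 RPKM in WT and 103.4 ± 58.1 in DKI, SD, n = 3), followed by Ppbp, Cxcl10, Pf4 and Cxcl16. The libraries of each of these genes overlapped those of the next in the order. Cxcl16 lay above Cxcl1 without overlap, and Cxcl1 and Cxcl3 were near 2 RPKM or below, with Cxcl9 lowest at 0.278 ± 0.161 in WT and 0.417 ± 0.181 in DKI.

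Pf4, platelet factor 4, was called between the genotypes on both days of culture. Its day 3 level was 57.3, 62.7 and 184.6 RPKM across the WT replicates, against 2234, 2161 and 889.7 across those of DKI. On day 6 it was at 86.4, 142.9 and 54.9 RPKM in WT and at 2912, 555.3 and 827.1 in DKI. Every DKI MDC library was thus above every WT MDC library, the lowest of the one being 3.01 times the highest of the other. On the log2(RPKM + 1) scale the difference was 4.20 (SE 0.57, 95% interval 2.83 to 5.57, adjusted p = 0.0135, limma) on day 3 and 3.63 (SE 0.66, interval 2.04 to 5.22, adjusted p = 0.0310) on day 6. These are 18.4 times and 12.4 times the WT level, where the day 0 difference was 0.29 (SE 0.65). On the log2(RPKM + 1) scale no other fitted CXC chemokine had a larger difference on either day, whereas with voom on whole reads Cxcl10 did on day 3, uncalled, at 5.10 (adjusted p = 0.434) against 4.21 for Pf4 (adjusted p = 0.0223).

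Pf4 was the only one of the 6 CXC chemokines fitted on each of these days that was called, against 7.42% of 9740 genes on day 3 and 7.54% of 9842 genes on day 6. Ranked by RPKM over all 20298 genes of a library, Pf4 stood at 17, 12 and 42 in the DKI day 3 libraries and at 1312, 1209 and 329 in the WT ones, which places it among the most abundant mRNAs of DKI MDCs. It made up between 72.5% and 91.5% of the summed RPKM of the 8 genes in the DKI MDC libraries and between 13.5% and 44.5% in the WT MDC libraries. The change of the genotype difference from day 0 to day 3, tested as an interaction, was 3.91 (SE 0.93, adjusted p = 0.0513), and it was called with a replicate block within each day (0.0386), a fit added after seeing the data. With all 12 libraries and no block none of the 7 genes fitted was called, against 2.91% of 10212 genes. Leaving out WT day 0 replicate 1 (adjusted p = 0.0252), WT day 3 replicate 3 (0.0332) or DKI day 3 replicate 3 (0.0401) brought the Pf4 interaction past the threshold, and over all alternatives its adjusted p ran from 0.0252 to 0.125.

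The Pf4 difference kept its direction with each library left out, while its call did not hold throughout. With 1 library or replicate number left out the day 3 difference lay between 3.67 and 4.74, and the call was lost without WT replicate 1 (adjusted p = 0.0568), without WT replicate 2 (0.0570) and without replicate 1 of both genotypes (0.0672). The day 6 difference lay between 2.92 and 4.13, and the call was lost without WT replicate 1 (adjusted p = 0.106), WT replicate 3 (0.114), DKI replicate 3 (0.0864) and replicate 1 of both genotypes (0.143), and without a filter on low values (0.0668).

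**Figure D2:**
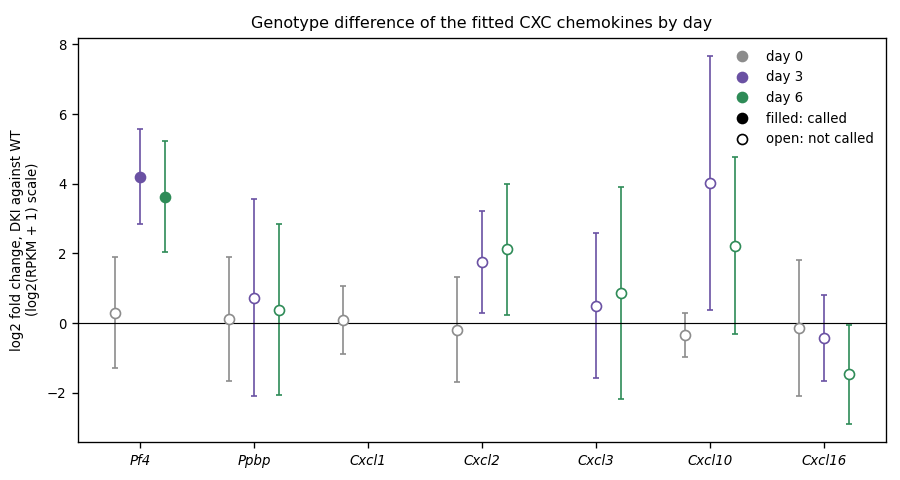
Log2 fold changes of DKI against WT on the log2(RPKM + 1) scale with 95% intervals, for the CXC chemokines fitted on day 0 (grey), day 3 (violet) and day 6 (green), with filled points for called differences. Pf4 is the only filled gene, at 4.20 on day 3 and 3.63 on day 6, whereas the intervals of Ppbp and Cxcl3 span 0 on each day they were fitted. Cxcl1 was fitted on day 0 and Cxcl3 on days 3 and 6, and Cxcl9 on none.

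Ppbp, the neighbour of Pf4 and the other chemokine of platelet granules, had no such difference. On day 3 it was at 3.12, 60.9 and 62.5 RPKM in WT and at 24.0, 110.5 and 25.4 in DKI, and on day 6 at 3.76, 39.4 and 10.4 in WT and at 25.0, 3.77 and 38.7 in DKI. The groups overlapped on both days, and the fitted differences were 0.73 (95% interval -2.10 to 3.55) and 0.39 (-2.06 to 2.84), which leaves room for a several-fold change in either direction. Ppbp exceeded Pf4 in 5 of 6 monocyte libraries, the exception being DKI replicate 2, and lay below it in all 12 MDC libraries. On day 3 the log2 ratio of Pf4 to Ppbp came to 1.93 ± 2.10 in WT and to 5.32 ± 1.14 in DKI (SD, n = 3 each, exact two-sided permutation p = 0.10, the smallest that 3 against 3 libraries can give). The day 6 ratios were 2.93 ± 1.41 and 6.16 ± 1.52 (exact permutation p = 0.20), and those of day 0 -0.94 ± 0.55 and -0.75 ± 0.82 (exact permutation p = 0.80). The ratio was higher in DKI in all 3 same-numbered pairs on day 3 and on day 6.

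Since both genes are platelet genes, 17 platelet and megakaryocyte markers were followed in the same libraries. Several of them, picked from the list to state what was absent in culture, were present on day 0. Tubb1, the platelet beta-tubulin, was at 11.3 to 83.6 RPKM, Gp9, of the von Willebrand factor receptor, at 3.43 to 16.7, and Gp6, the collagen receptor, at 0.847 to 6.61. In the 12 MDC libraries none of these exceeded 0.619 (Tubb1), 0.157 (Gp9) or 0.0404 RPKM (Gp6). Pf4 was at 555.3 to 2912 RPKM in the DKI libraries among them. Other markers of the list remained in culture. In the DKI MDC libraries Vwf, von Willebrand factor, was at 1.70 to 18.6 RPKM (1.63 to 10.4 in the monocyte libraries of both genotypes), P2ry12, an ADP receptor, at 2.99 to 21.1 (2.06 to 7.18), and Itgb3, an integrin subunit, at 1.86 to 11.5 (8.72 to 32.97). Clec1b and Selp reached 6.57 and 5.01 RPKM in these libraries.

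The list summed to 277.1 to 299.4 RPKM in WT and 233.5 to 288.1 in DKI on day 3, most of it from Plek, which monocytes also express. The other 16 markers summed to 56.4 to 303.3 RPKM on day 0. In MDCs they summed to 14.0 to 19.8 (WT) and 35.8 to 50.1 (DKI) on day 3 and to 14.0 to 27.4 and 39.5 to 55.1 on day 6. That remainder was higher in DKI than in WT without overlap, and 9 to 13 of the 16 markers were below 1 RPKM in each MDC library. Of the 6 markers fitted on each day, Gng11, a G protein gamma subunit, was the 1 called, higher in DKI on both days, where 7.42% and 7.54% of all genes were called (2.6, 3.4 and 2.6 RPKM in WT against 8.9, 6.3 and 7.2 in DKI on day 3, log2 difference 1.12). In monocytes, the library with the lowest Ppbp of each genotype, replicate 1, also had the lowest sum of these markers (56.4 in WT and 95.2 in DKI), and the one with the highest, replicate 3, had the highest (303.3 and 208.0). Whether platelets carried along in the day 0 preparations made up the Ppbp and Pf4 signal there was not tested.

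**Figure D3:**
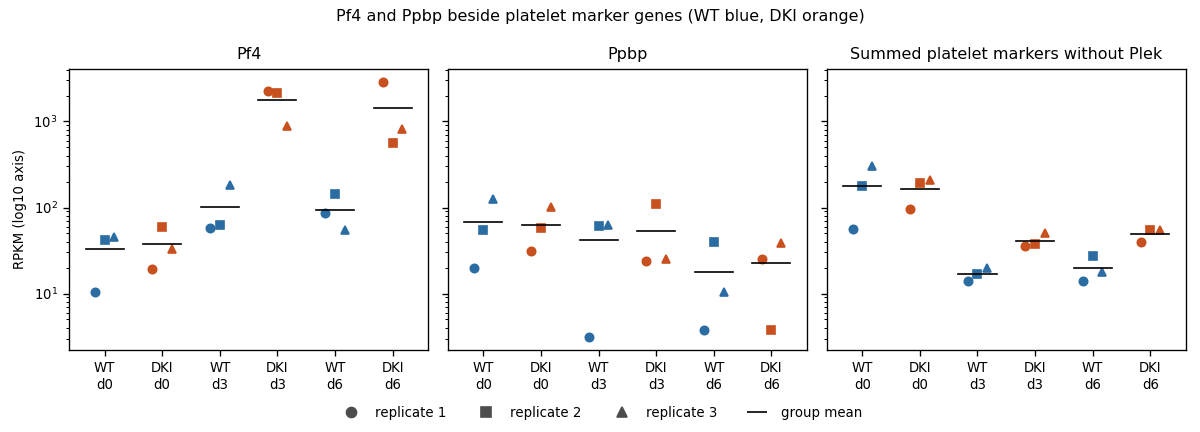
RPKM on a log10 axis of Pf4, of Ppbp and of the sum of 16 platelet markers (without Plek) in each of the 18 libraries, with group means as lines. The marker sum falls from 56.4 to 303.3 RPKM on day 0 to 14.0 to 55.1 in the MDC libraries, Ppbp stays between 3.12 and 110.5 in the MDC libraries, and Pf4 in DKI MDCs reaches 555.3 to 2912.

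Some markers of differentiated cells also differed between the genotypes. Of the 11 macrophage markers fitted on each day, 4 were higher in DKI on day 3 and 4 on day 6, and none was lower, and their median log2 difference was 3.05 and 2.20 against -0.11 and -0.17 over all genes. Stab1, a scavenger receptor, was at 6.9, 0.9 and 0.4 RPKM in WT and at 182.2, 95.1 and 77.1 in DKI on day 3 (log2 difference 5.33), and Mrc1, the mannose receptor, at 48.2, 4.5 and 13.3 against 417.2, 345.2 and 275.8 (4.45). Folr2, a folate receptor of tissue macrophages, was called on day 6 (4.66), at 0.8, 0.3 and 0.3 RPKM in WT and 150.6, 21.9 and 13.3 in DKI. Without DKI replicate 1 the Folr2 difference was 3.63 and was still called. Of the 8 dendritic cell markers 5 were fitted on day 3 and 7 on day 6, and 3 on each day, Cd209a, Ccr7 and Zbtb46, were lower in DKI. Over all genes fitted, 7.42% and 7.54% were called on these days.

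The summed RPKM of the macrophage list was 439.1 to 1273 in WT and 2219 to 6318 in DKI on day 3, and that of the dendritic cell list 5516 to 8205 in WT and 653.6 to 3085 in DKI. On day 6 the macrophage sums were 597.5 to 2767 in WT and 2320 to 7319 in DKI, with overlap. Those of the dendritic cell list were 5625 to 10045 in WT and 1036 to 4476 in DKI. The part of these cell types in the chemokine differences was not tested, and in bulk RNA fewer cells of a type and less RNA per cell cannot be told apart. Over the 18 libraries the genes whose log2(RPKM + 1) was most like that of Pf4 were Hs2st1, a heparan sulfate sulfotransferase (Pearson r = 0.975), Tspan4 (0.964) and Sesn1 (0.963). For Ppbp the most similar gene, Vdac3, reached 0.762. These values describe 18 libraries that share their groups.

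Cxcl10, the interferon-inducible CXCR3 ligand, was high in monocytes of both genotypes, much lower in WT MDCs, and uneven in DKI MDCs. On day 0 it was at 37.2, 59.9 and 57.1 RPKM in WT and at 47.3, 29.0 and 43.8 in DKI. On day 3 it was at 5.64, 0.314 and 0.904 RPKM in WT and at 469.0, 17.8 and 7.03 in DKI. On day 6 the values were 1.04, 0.465 and 0.360 in WT and 45.9, 1.75 and 2.23 in DKI. The WT and DKI libraries did not overlap on either day, but DKI replicate 1 stood far above the other 2 DKI libraries.

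The genotype difference of Cxcl10 was 4.02 (SE 1.52, 95% interval 0.38 to 7.67, adjusted p = 0.158, limma) on day 3 and 2.23 (SE 1.06, interval -0.33 to 4.78, adjusted p = 0.223) on day 6, so that neither was called. Without DKI replicate 1 the day 3 difference was 2.27 (adjusted p = 0.138), and without replicate 1 of both genotypes 2.96 (0.0527). With all 18 libraries in 1 fit it was called (adjusted p = 0.0423). Over all 14 alternatives the adjusted p ranged from 0.0423 to 0.434. Without DKI replicate 1 of day 6 Cxcl10 no longer passed the filter on low values, and no difference was fitted. Of the 6 CXC chemokines fitted, 3 had WT and DKI libraries that did not overlap on day 3 (Pf4, Cxcl10 and Cxcl2), against 36.3% of all genes fitted, and 2 on day 6 (Pf4 and Cxcl10), against 37.2%. With 6 genes, neither count is far from its background.

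Most interferon-stimulated genes were, like Cxcl10, highest in replicate 1 of DKI. Of the 18 genes of the interferon list, 14 were highest, among the 6 libraries of day 3, in DKI replicate 1, and 12 were highest, among the 6 of day 6, in the DKI replicate 1 of that day. On day 6, 1 gene was highest in WT replicate 1 and 4 in WT replicate 3, Mx1 and Gbp2 among them. Irf7, the master factor of type I interferon, was at 10.5, 1.0 and 5.3 RPKM in WT and at 1423, 116.9 and 20.1 in DKI on day 3. Rsad2, the antiviral enzyme viperin, was at 4.3, 0.4 and 2.1 in WT and at 486.7, 35.7 and 8.3 in DKI. Both were higher in every DKI library than in any WT library on day 3 without being called (adjusted p = 0.109 and 0.120), and both were called higher on day 6 (5.13 and 3.77, adjusted p = 0.0415 and 0.0341). Without DKI replicate 1 the day 6 differences fell to 3.84 and 2.95 and were still called (adjusted p = 0.0269 and 0.0294), and without replicate 1 of both genotypes that of Irf7 was called (4.24, 0.0411) and that of Rsad2 was not (3.04, 0.110). In the other direction Jak2, the kinase of the GM-CSF and interferon gamma receptors, was lower in DKI on both days (289.3, 321.1 and 294.4 RPKM in WT and 62.5, 65.3 and 82.4 in DKI on day 3). On day 3 Jak2 was the only one of the 18 genes fitted that was called, and on day 6 the list had 2 higher and 2 lower, that is, 1 and 4 of 18 against 7.42% and 7.54% of all genes.

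The summed RPKM of the interferon list was 769.7 to 821.3 in WT and 728.3, 931.5 and 4646 in DKI on day 3, a sum that also holds Jak2 and other genes not raised in DKI. In DKI replicate 2 of day 3, Isg15, a ubiquitin-like protein, was at 114.9 RPKM against 4.57 to 20.1 in WT, and Ifit1, an antiviral RNA-binding protein, at 37.3 against 0.393 to 6.46. In DKI replicate 3 Isg15 and Ifit1 were nearer to WT, at 29.6 and 7.84. Gbp2 went the other way in DKI replicate 2, at 22.9 against 35.4 to 52.6 in WT. The T and NK cell list summed to 54.3 RPKM in DKI replicate 1 of day 3 and 62.8 in that of day 6, against 0.317 to 3.57 in the other MDC libraries. Most of it was Cd4, the T cell coreceptor (53.2 and 59.4), while Cd3e, of the T cell receptor complex, was at 0 and 0.0232 and Ifng, a T and NK cell product, did not exceed 0.0960 in any library. Ly6c2, a gene of classical monocytes chosen here after its values were seen, was at 775.1 RPKM in DKI replicate 1 of day 3, against 49.5 and 73.8 in the other DKI and 11.2 to 39.8 in the WT libraries. The part of this library, of the earlier year in its name, and of its interferon-stimulated, T and NK cell list and monocyte genes in the Cxcl10 value was not tested. The genes most like Cxcl10 over the 18 libraries were Ms4a6b (r = 0.954), Ms4a4c (0.953) and Ogfr (0.949).

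**Figure D4:**
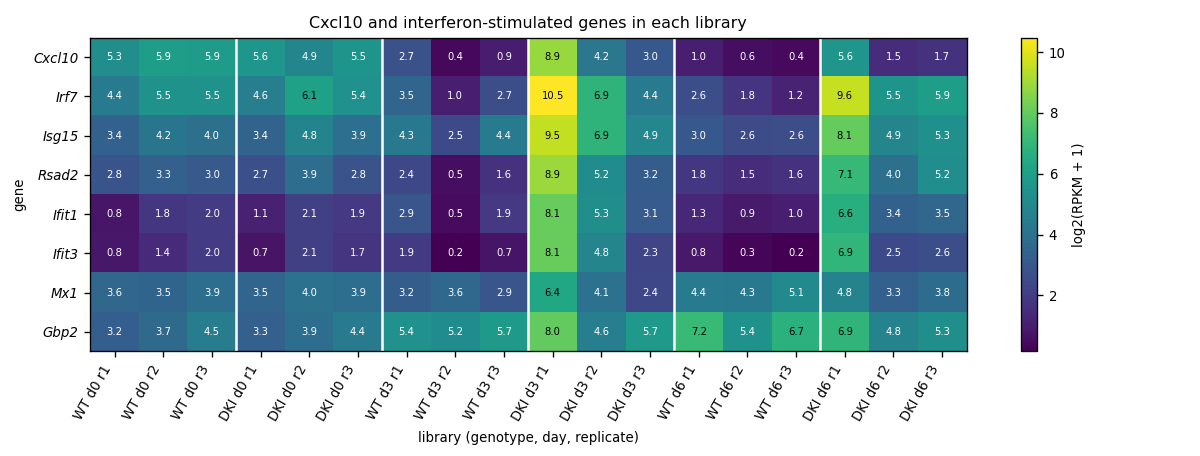
Log2(RPKM + 1) of Cxcl10 and of 7 interferon-stimulated genes in each library (columns: genotype, day, replicate), with the value printed in each cell and groups divided by white lines. Cxcl10 and the interferon genes are highest together in DKI replicate 1 of day 3, where Cxcl10 reaches 469.0 RPKM, and next, among the MDC libraries and for all genes shown but Mx1 and Gbp2, in DKI replicate 1 of day 6. On day 0 Cxcl10 is at 29.0 to 59.9 RPKM in both genotypes while Ifit1 and Ifit3 are low.

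Cxcl9, the other CXCR3 ligand, was barely detected. It never exceeded 0.559 RPKM, in DKI monocyte replicate 3 with 48 reads, and did not pass the filter in any comparison. In WT MDCs it had 9, 0 and 0 reads on day 3 and 5, 0 and 1 on day 6, and in DKI MDCs 32, 2 and 4 and then 3, 0 and 0. The 32 reads were those of DKI replicate 1 of day 3. A gene at 0 reads in a library may still have up to 3 reads' worth of mRNA by counting error alone. The RPKM of Cxcl9 was higher in DKI in all 3 same-numbered pairs on day 0 and on day 3. On day 3, however, pairs 2 and 3 held 0 WT reads against 2 and 4 DKI reads. The 2 reads lie within that counting error, so the direction of pair 2 is not settled. Without the filter the differences were 0.15 (SE 0.13, 95% interval -0.18 to 0.47), 0.11 (SE 0.096, interval -0.13 to 0.35) and -0.012 (SE 0.025, interval -0.074 to 0.049) on days 0, 3 and 6, and none was called.

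Cxcl2, a strong neutrophil attractant, fell on culture in WT and was higher in DKI in every same-numbered pair on day 3 and day 6. On day 0 it was at 139.9, 55.4 and 130.0 RPKM in WT and at 136.4, 36.3 and 137.4 in DKI, that is, lowest in replicate 2 of both genotypes. On day 3 it was at 8.72, 9.25 and 5.71 RPKM in WT and at 77.7, 13 and 22.1 in DKI. By day 6 it was at 3.96, 2.52 and 1.59 in WT and at 22.1, 3.29 and 36.4 in DKI. The groups did not overlap on day 3, and on day 6 DKI replicate 2 fell inside the WT range. The differences of 1.75 (SE 0.61, 95% interval 0.28 to 3.22, adjusted p = 0.137, limma) and 2.12 (SE 0.78, interval 0.24 to 4.0, adjusted p = 0.138) were not called. Without DKI replicate 1 the day 3 difference was 1.04 (adjusted p = 0.0925), and without DKI replicate 2 the day 6 difference was 3.05 and was called (adjusted p = 0.0124).

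Cxcl1 followed Cxcl2 at a level far below it. Its WT values were 3.96, 1.06 and 1.90 RPKM on day 0 and 0.148, 0.278 and 0 on day 3, the last with 0 reads, and its DKI values 2.88, 1.21 and 3.12 and then 2.61, 0.452 and 0.538. By day 6 it was at 0.180, 0.0975 and 0.0346 in WT and at 1.12, 0.107 and 1.24 in DKI. DKI values lay above the WT ones on both days, without overlap, except that DKI replicate 2 of day 6 fell within the WT range, but with means of 1.20 and 0.821 RPKM in DKI the gene did not pass the filter. Without the filter the differences were 0.82 (SE 0.37, adjusted p = 0.291, limma) on day 3 and 0.66 (SE 0.28, adjusted p = 0.249) on day 6, and neither was called. Over the 18 libraries Cxcl1 and Cxcl2, which share the kappaB match printed above, were each other's most similar gene (r = 0.951).

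Cxcl3, the third ELR gene of that stretch of chromosome 5, went the other way in culture. It rose from 1.55, 2.12 and 0.333 RPKM in WT and 1.52, 1.83 and 0.568 in DKI monocytes to 19.2, 236.1 and 63.8 in WT and 127.1, 115.5 and 58.4 in DKI on day 3. On day 6 it was at 21.4, 78.9 and 15.1 in WT and at 196.0, 6.76 and 111.3 in DKI. The genotypes overlapped on each day, with differences of 0.50 (95% interval -1.57 to 2.58) on day 3 and 0.86 (-2.18 to 3.89) on day 6. In replicate 2 the WT value was the highest of its group on each day, and the DKI value on day 6 the lowest of its group. The ratio of Cxcl3 to Cxcl2, genes with the same kappaB match, was between 0.00256 and 0.0505 in the 6 monocyte libraries and between 1.64 and 31.4 in the 12 MDC libraries. The log2 ratio did not pass a test between genotypes that cannot give a p below 0.10, on day 3 (3.10 ± 1.80 in WT and 1.75 ± 1.26 in DKI, SD, n = 3, exact permutation p = 0.30) or on day 6 (3.55 ± 1.30 and 1.93 ± 1.09, exact permutation p = 0.20). It was lower in DKI in all 3 same-numbered pairs on day 3 and in 2 of 3 on day 6.

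Cxcl16, the scavenger receptor and CXCR6 ligand, was the one fitted gene of the group with a negative genotype difference on both days of culture, and it was not called. On day 3 it was at 79.5, 95.8 and 97.7 RPKM in WT and at 145.7, 64.6 and 31.9 in DKI, with overlap, and a difference of -0.43 (95% interval -1.66 to 0.81). On day 6 it was at 274.9, 93.5 and 136.3 in WT and at 121.9, 35.8 and 36.6 in DKI. DKI was lower in each of the 3 same-numbered pairs on day 6, while the groups overlapped through replicate 1, which was highest in both. The difference was -1.47 (SE 0.59, 95% interval -2.88 to -0.05, adjusted p = 0.165, limma), and with replicate number as a block it was called (SE 0.19, adjusted p = 0.0337). Icam1, an adhesion molecule, was most like Cxcl16 over the 18 libraries (r = 0.960).

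The change from monocyte to MDC was followed in each genotype. In WT, 5 of the 7 genes fitted were called between day 0 and day 3, against 43.1% of 9938 genes, so that a call as such was common. Cxcl3 rose by 4.95 (SE 0.83, adjusted p = 0.00334, limma on log2(RPKM + 1)) and Cxcl16 by 2.76 (SE 0.50, adjusted p = 0.00450). Cxcl10 fell by 4.33 (SE 0.57, adjusted p = 0.00139), Cxcl2 by 3.53 (SE 0.37, adjusted p = 0.000596) and Cxcl1 by 1.45 (SE 0.35, adjusted p = 0.0135). Pf4 differed by 1.64 (SE 0.65, adjusted p = 0.0750) and was not called, and Ppbp by -1.07 (interval -3.79 to 1.65).

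In DKI, 3 of the 7 genes were called, all higher on day 3, against 34.2% of 9922 genes. Pf4 rose by 5.55 (SE 0.51, adjusted p = 0.00132, limma), Cxcl3 by 5.42 (SE 0.36, adjusted p = 0.000580) and Cxcl16 by 2.47 (SE 0.76, adjusted p = 0.0446). The Cxcl16 call did not hold in 6 of 14 alternatives, among them leaving out DKI day 0 replicate 2 (0.122) or 3 (0.118) and DKI day 3 replicate 1 (0.0997) or 2 (0.0917). The genes that fell in WT were not called in DKI, with -1.60 for Cxcl2 (adjusted p = 0.143), -0.71 for Cxcl1 (0.239) and 0.04 for Cxcl10 (0.984). Without DKI day 3 replicate 1 the 3 were called lower, at -2.31 (adjusted p = 0.0386), -1.14 (0.0422) and -1.71 (0.0256). Whether the fall differed between genotypes was tested as the interaction, which was 4.37 for Cxcl10 (SE 1.69, adjusted p = 0.230, 0.0450 with the block within each day, and 3.66 with 0.0432 without replicate 1), 1.94 for Cxcl2 (0.354) and 0.73 for Cxcl1 (0.622).

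From day 3 to day 6 none of the 6 genes fitted was called in either genotype, and neither was any other gene (0% of 9613 genes in WT and 0% of 9540 in DKI by limma, with 722 and 93 at an unadjusted p under 0.05, and 0 by voom on whole reads in both). Cxcl2 in WT went from 5.71 to 9.25 RPKM down to 1.59 to 3.96, without overlap, with a difference of -1.30 (adjusted p = 0.613). The genotype difference itself was not called as changed between these days in any of 9985 genes (0%, with 89 at an unadjusted p under 0.05 and 0 by voom).

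**Figure D5:**
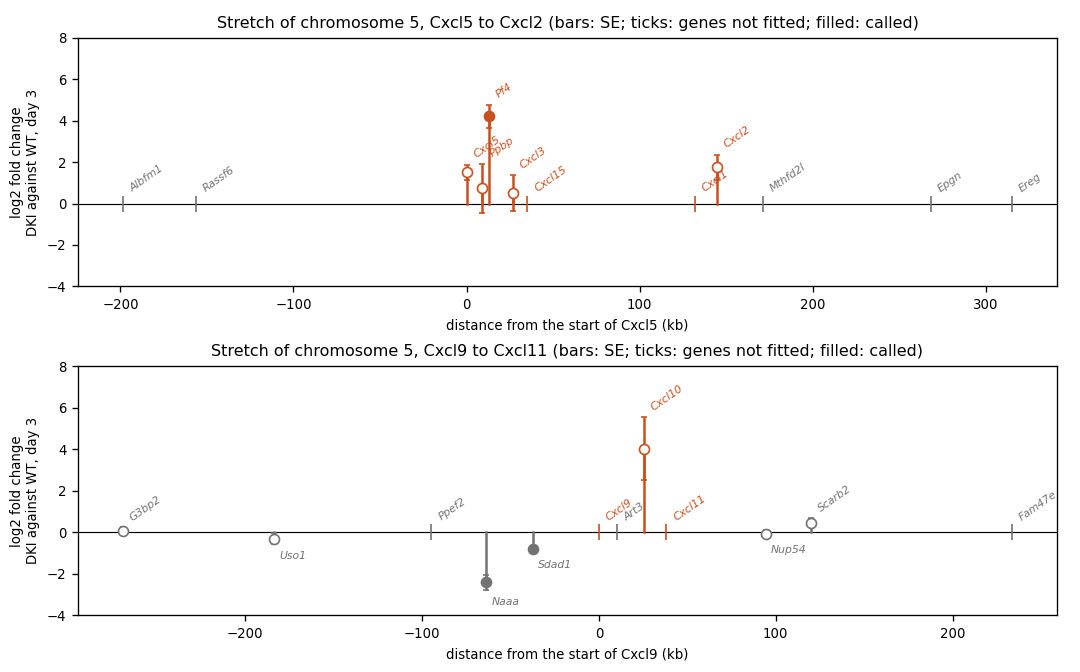
Log2 fold changes of DKI against WT on day 3 with SE, for the genes of the 2 chemokine stretches of chromosome 5 and 200000 bases on either side, by distance in kb from the start of Cxcl5 (top) and of Cxcl9 (bottom), with chemokines in orange, called genes filled and genes that were not fitted as ticks. Pf4 is the only called gene of the first stretch, between Ppbp and Cxcl3, which are not called. In the second stretch Naaa and Sdad1 are filled and below 0, beside an open Cxcl10.

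Neighbours of the chemokine genes were described by position, with no test of it. The start of Pf4 lies 3.92 kb from that of Ppbp and 13.7 kb from that of Cxcl3, neither of which was called. Cxcl5, another ELR ligand next to Ppbp and not among the 8, was at 0.39 to 0.53 RPKM in WT and at 5.70, 3.07 and 1.49 in DKI on day 3, a difference of 1.5 (SE 0.37, adjusted p = 0.0644). Near Cxcl10, the genes Naaa (-2.41, adjusted p = 0.0194) and Sdad1 (-0.82, adjusted p = 0.0435), which lie next to each other and are named after their values were seen, were both lower in DKI on day 3, whereas G3bp2, Uso1, Nup54 and Scarb2 were not called.

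The rest of the pathway was followed in lists. The table holds 9 receptors, of which 7 were below 1 RPKM in every library. Only Cxcr2 and Cxcr4 were fitted, and neither was called between genotypes with all libraries of a day. Cxcr4, the CXCL12 receptor that holds leukocytes in the marrow, was at 265.7 to 431.1 RPKM on day 0, at 10.6, 26.2 and 15.5 in WT and at 91.5, 45.0 and 40.5 in DKI on day 3, where the difference was 1.70 (SE 0.42, adjusted p = 0.0615). Cxcr2, the receptor of the ELR chemokines, was at 2.84, 19.7 and 13 RPKM in WT and at 1.65, 3.09 and 2.73 in DKI (-1.59, adjusted p = 0.162). Without replicate 1 of both genotypes the Cxcr2 difference was -2.12 and was called (adjusted p = 0.0304, limma). Both receptors were chosen after their values were seen.

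Of the 9 genes for processing and binding of CXC chemokines, all fitted on both days, 1 was called higher on day 3 and none on day 6, against 7.42% and 7.54% of all genes fitted. It was Adam17, the sheddase of CXCL16, at 50.6, 50.1 and 52.5 RPKM in WT and at 110.7, 85.0 and 90.1 in DKI (0.88, adjusted p = 0.0277). Of the 18 regulators of the NF-kappaB pathway and of chemokine mRNA decay, none was higher. Of the 18 fitted on day 3, 1 was lower, Rel (-1.65), a subunit of NF-kappaB, and of the 17 fitted on day 6, 4 were lower, namely Rel (-2.01), Nfkb1, Nfkb2 (-1.66) and Nfkbia (-1.72), the inhibitor that NF-kappaB itself induces. The 1 of 18 on day 3 is no more than the 7.42% called over all genes, and the background on day 6 was 7.54%. Of 9 immediate early genes fitted on each day, which respond to handling, none was called on day 3, and Fos (3.03) and Jun (1.31), the subunits of AP-1, were higher on day 6. Of the 13 neutrophil markers, all fitted, 2 were called higher on day 3 (Csf3r and Retnlg) and 1 on day 6 (Csf3r), beside the same backgrounds. The summed RPKM of the neutrophil list was 286.0 to 4861 in WT and 1734 to 3840 in DKI on day 3, with overlap, and the highest, WT replicate 2, was mostly S100a8 and S100a9 (2192 and 1757 RPKM). The median log2 difference of the 13 markers was 1.78 on day 3 and 1.01 on day 6, against -0.11 and -0.17 over all genes. The part of handling and of neutrophils in the chemokine values was not tested.

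The 21 genes outside the 8 chemokines that are named above as called between genotypes in MDCs, apart from Stat5a, had 30 such calls on days 3 and 6. All 30 kept their direction without replicate 1 of both genotypes, and 8 were still called with the 4 libraries left. With a replicate block 23 were still called. The 7 that were not were Adam17 (adjusted p = 0.0579), Cd209a (0.0563), Gng11 (0.0551) and Sdad1 (0.0724) on day 3 and Cd209a (0.0617), Nfkb2 (0.0536) and Zbtb46 (0.0551) on day 6, and Fos was called on day 3 with the block (0.0400).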

How the data were processed

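The 18 RNA-seq libraries cover WT and DKI cells before culture (day 0) and on days 3 and 6 of it. According to the study's methods, the authors aligned the reads to mm10 with Subread, counted them on RefSeq genes with featureCounts, and deposited RPKM values, 1 column per library. Versions, strandedness and the treatment of reads that match several genes are not given in the sources used here. Groups and replicate numbers came from the sample labels, and all 18 columns were used.

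The deposited RPKM values keep whole reads. The depth that turned the values of 1168 single-exon receptor genes into whole numbers, with 1 length per gene, gave whole reads in every library for all 17013 genes above 0 (100%, largest distance from a whole number 0.0065 reads). Depth was 29.5 to 43.2 M reads, median 36.4 M. Intervals from read numbers cover counting error only.

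Values were analysed as log2(RPKM + 1) with limma 3.58.1 in R 4.3.3 (lmFit, eBayes with trend) on the libraries of each comparison, in genes with a mean RPKM above 2 in a group, with Benjamini-Hochberg adjustment over all genes fitted. Fold changes on this scale understate those of low genes. Interactions used 12 libraries. Alternatives were a pseudocount of 0.1, no filter, a replicate block, all libraries in 1 fit, median centring, quantile normalization and leaving out each library. 3 more were chosen after seeing the data, limma voom on the whole reads, leaving out replicate 1 in both genotypes and, for interactions, a replicate block within each day. On data simulated from the WT day 3 libraries (9422 genes), the fit recovered 50 of 50 genes changed 4-fold and 34 of 50 changed 2-fold, and called 9 unchanged genes. The simulation gave every gene the same small spread between replicates, without pairing, and changed only genes well above the filter. Several of the chemokines, Cxcl3 and Cxcl10 among them, spread far more widely, so these recoveries do not apply to them. The study calls its replicates independent experiments, and where that does not hold the p-values measure technical spread.

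The deviations of WT and DKI libraries with the same number from their groups' means were correlated in all 3 pairs (r = 0.69 to 0.87 on day 0, 0.16 to 0.37 on day 3 and 0.34 to 0.41 on day 6), so the numbers were taken to pair the genotypes within a day, and the blocked value is given where it changes a call. Between day 0 and day 3 they were not taken to pair libraries (r = -0.21 to 0.0024 in WT and -0.014 to 0.18 in DKI). Between day 3 and day 6 same-numbered libraries were correlated (r = 0.12 to 0.68 in WT and 0.32 to 0.74 in DKI). The fits printed for these days have no block.

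The 8 genes and the lists of other genes were chosen with earlier results of these data known. Named genes were the 8, Stat5a and Stat5b, at most 3 genes per list with the largest difference among those called on day 3 or 6, genes needed to state what is absent, and the 3 genes most like each chemokine (Pearson r over 18 libraries). Genes named otherwise were chosen after their values were seen, namely Plek, Vwf, P2ry12, Itgb3, Clec1b, Selp, Isg15, Ifit1, Mx1, Gbp2, Cd4, Cd3e, S100a8, S100a9, Cxcl5, Cxcr2, Cxcr4, Nfkb1, Ly6c2, Naaa, Sdad1 and their unchanged neighbours. Cxcr3, Gata1, Alas2 and Vsig4 were not analysed here. Figures were made with matplotlib 3.10.9.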

Additional observations from a re-analysis of the deposited data

How the results depend on the processing

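Of the 6 CXC chemokines fitted between genotypes on day 3, the 1 call (Pf4) became 2 with all 18 libraries in 1 fit (Cxcl10 added) and 0 to 1 with libraries left out. On day 6 it became 0 without the filter on low values, 2 with the replicate block (Cxcl16 added) and 0 to 2 with libraries left out. The 3 calls from day 0 to day 3 in DKI became 2 to 5 with libraries left out. The interaction from day 0 to day 3, with 0 calls, had 2 (Pf4 and Cxcl10) with a replicate block within each day, 1 (Pf4, adjusted p = 0.0499) with 1 replicate block over both days and 0 to 1 with libraries left out. From day 0 to day 3, where same-numbered libraries share only a number, the replicate block called Pf4 in WT (adjusted p = 0.0265) and Cxcl2 in DKI (0.0400). The block changed no other call of the 8 genes.

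Several uncalled differences changed sign. With libraries left out, those between genotypes on day 0 ranged from -0.21 to 0.43 for Cxcl1, -0.61 to 0.44 for Cxcl2, -0.83 to 0.46 for Cxcl16, -0.37 to 0.69 for Pf4 and -0.56 to 0.75 for Ppbp (log2 scale). Leaving out a single library also breaks a same-numbered pair. With the replicate block the day 0 SE was 0.089 against 0.80 without it for Cxcl16, and 0.24 against 0.65 for Pf4. On day 3 the ranges were -0.58 to 1.41 for Cxcl3, -1.07 to 0.10 for Cxcl16 and -0.58 to 1.39 for Ppbp, and on day 6 they were -0.28 to 2.28 for Cxcl3 and -0.64 to 1.31 for Ppbp. From day 0 to day 3, Ppbp in WT ranged from -1.74 to 0.24 and Cxcl10 in DKI from -1.71 to 1.23, the latter called lower without DKI day 3 replicate 1. Quantile normalization gave -0.023 for Cxcl1 on day 0, and a pseudocount of 0.1 gave -0.0052 for Cxcl10 in DKI from day 0 to day 3. The causes were not tested.

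Counts over all genes depended on the setting. The 723 genes called between genotypes on day 3 became 358 without the filter, 523 with voom and 1350 with all libraries in 1 fit, and the 742 on day 6 became 187, 466 and 1545. Leaving out libraries gave 197 to 715 (day 3) and 38 to 984 (day 6). The 297 interactions from day 0 to day 3 became 91 with voom, 1040 with the block within each day and 125 to 336 with libraries left out. With all libraries in 1 fit 6 genes were called between genotypes on day 0 and 13 in WT from day 3 to day 6, where the comparisons by themselves called 0.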

Other observations

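Of the 7 other CXC ligands in the table, Cxcl12, which retains cells in the marrow, was at 4.0 to 10.2 RPKM in the 6 monocyte libraries and at or below 0.351 in the 12 MDC libraries. It fell by 2.71 in WT (SE 0.24, adjusted p = 0.000333, limma on log2(RPKM + 1)) and by 3.01 in DKI (SE 0.26, adjusted p = 0.00108) from day 0 to day 3. Cxcl11, the remaining CXCR3 ligand, was at 2.80 RPKM in DKI replicate 1 of day 3, the library with the highest Cxcl10, and at or below 0.228 in the other 17 libraries. Cxcl13, the B cell attractant, was at 4.32 RPKM in DKI replicate 1 of day 6 and at or below 0.0984 elsewhere. The last 2 are single libraries, with no test, and were chosen after their values were seen.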
